A study of Homo sapiens with 9 samples.

Results

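The 10 genes described here encode amino acid transporters of the plasma membrane and inner membranes other than the cystine exchanger: SLC1A4, SLC1A5, SLC6A9, SLC7A1, SLC7A5, SLC7A6, SLC38A1, SLC38A2, SLC38A10 and SLC43A1. They were taken by gene symbol from a table of 60671 genes, and each symbol matched 1 row. The RNA came from AC16, a human line that GEO's labels call a cardiomyocyte cell line and that was made by fusing adult ventricular heart cells with fibroblasts. There were 9 polyadenylated RNA libraries in 3 groups of 3: low glucose alone, high glucose alone, and high glucose combined with chrysin, a flavonoid found in plants and honey. The last 2 groups share the high glucose, and no group had chrysin in low glucose. All libraries come from a single cell line. The sources used here state neither sugar concentrations, chrysin dose nor exposure time. They also do not say that the replicates were separate cultures, so the p-values rest on the scatter among 3 libraries a group, and this scatter may be technical.

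Amino acids cross the plasma membrane through families of carriers with overlapping substrates. SLC1A5 and the sodium-coupled SLC38 carriers bring glutamine and small neutral amino acids into the cell. SLC7A5, bound to the heavy chain SLC3A2, then exchanges intracellular glutamine for leucine and other large neutral amino acids, whose supply is sensed by the growth kinase complex mTORC1. Several of these genes are known targets of ATF4, a transcription factor made when amino acids are scarce or the endoplasmic reticulum (ER) is under stress. ATF4 binds, with a C/EBP partner, a composite element in or near the promoters of its target genes.

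The members' RefSeq promoter windows (250 bases before to 50 after a start site, build GRCh38.p14) were searched on both strands for TGATGNAA, reverse complement TTNCATCA, the core of that composite element. RefSeq gives 15 windows for the 10 genes, since SLC1A4, SLC1A5, SLC38A1 and SLC43A1 have several starts. The core was found in 4 windows, 1 each for SLC7A1, SLC1A4, SLC1A5 and SLC38A1, against 3.62% of all 35116 windows of this length. No window of SLC6A9, SLC7A5, SLC7A6, SLC38A2, SLC38A10 or SLC43A1 held it. The 4 genes with a match each fell in at least 1 comparison, but so did SLC6A9, SLC7A5, SLC7A6 and SLC38A2 without one. All 4 matches are shown, with the core in capitals and the flanks in lower case, 5′ to 3′ on the gene's strand.
SLC7A1: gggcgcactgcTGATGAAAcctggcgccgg
SLC1A4: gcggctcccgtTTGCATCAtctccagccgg
SLC1A5: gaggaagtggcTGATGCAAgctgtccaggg
SLC38A1: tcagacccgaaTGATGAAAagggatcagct

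The SLC7A1 stretch lies at chr13:29595663-29595692 on the minus strand, and its core begins at base 8 after the start, within the transcribed region. In SLC1A4 (chr2:64989381-64989410, plus strand) the core reads on the opposite strand and begins 7 bases before the inner of 2 starts. For SLC1A5 (chr19:46784893-46784922, minus strand) it lies 97 bases before the innermost of 3 starts. For SLC38A1 (chr12:46266502-46266531, minus strand) it begins 4 bases before the inner of 2 starts. A palindromic cyclic AMP element, TGACGTCA, was in none of the members' windows and in 1.85% of all windows. A match describes letters in a window and does not show binding, and elements farther from the start were not searched.

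Values are FPKM, fragment counts scaled to transcript length and library depth. The lengths used are not stated, so orders, sums, shares and ratios between genes depend on lengths that could not be checked. Fold changes are log2 differences of FPKM + 0.5, tested with limma in 1 fit of all 9 libraries and called at a Benjamini-Hochberg adjusted p under 0.05 over 16996 genes. The smallest whole reads recovered from the FPKM steps came to between 18171842 and 23024300 per library. High glucose library 1 stood apart from the other 2 of its group, its mean chi-square per gene being 7.56 and 8.65 where all other pairs within a group gave 2.14 to 2.94. Cardiomyocyte markers did not bear out the label: 12 of 14 were below 1 FPKM in every library, and MYL2 and NKX2-5 were at 0 in all 9. All 11 fibroblast markers had a mean of at least 1 FPKM. They summed to between 7698 and 7996 FPKM at low glucose, between 9094 and 9567 at high glucose and between 6370 and 6531 beside chrysin, and the cardiomyocyte markers to 28.3 to 29.3, 22.5 to 24.8 and 19.2 to 21.4 in that order. Endothelial markers summed to at most 2.09 FPKM and macrophage markers to at most 5.81. Mitochondrially encoded genes took 2.79% to 3.04% of reads without chrysin and 3.80% to 3.89% with it. The part of these differences in the results on transporters was not tested, and in bulk RNA a change in the makeup of the culture and a change of RNA per cell cannot be told apart.

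The summed RNA of the 10 transporters was highest in low glucose and lowest with chrysin. In high against low glucose 7 of the 10 genes were called, against 23.5% of all genes tested: 6 fell (SLC1A4, SLC6A9, SLC7A1, SLC7A5, SLC38A1 and SLC38A2) and 1 rose (SLC38A10), where 8.91% of all genes fell and 14.6% rose. Scaling by the median of ratios shifts that split over all genes from 2488 risen and 1514 fallen to 1987 and 1869. It leaves the 6 falls in place and ends the SLC38A10 call. With chrysin against high glucose 6 fell (SLC1A4, SLC1A5, SLC6A9, SLC7A5, SLC7A6 and SLC38A2) and none rose, where 45.8% of all genes were called, 20.9% falling and 24.9% rising. Chrysin with high glucose against low glucose gave 8 calls (51.0% of all genes), 7 lower (21.3%) and SLC38A10 higher (29.7%). The 3 comparisons share libraries. The members were chosen with earlier results of these data known, so their counts beside those of all genes are a description and no independent test. Counted by libraries that did not overlap, 8 members were separate in high against low glucose (37.9% of all genes), 6 lower (15.4%) and 2 higher (22.5%). With chrysin against high glucose 6 were separate (54.3%), all 6 lower (24.5%) and none higher (29.8%). Against low glucose 9 were separate (60.0%), 8 lower (25.4%) and 1 higher (34.6%). The median log2 difference of the 10 genes was -0.23, -0.32 and -0.55 in these 3 comparisons, and that of all genes 0.02, 0.03 and 0.05. All 10 passed the filter on low values (0.5 FPKM or more on average in any group), SLC43A1 only through the 2 high glucose groups.

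**Figure D1:**
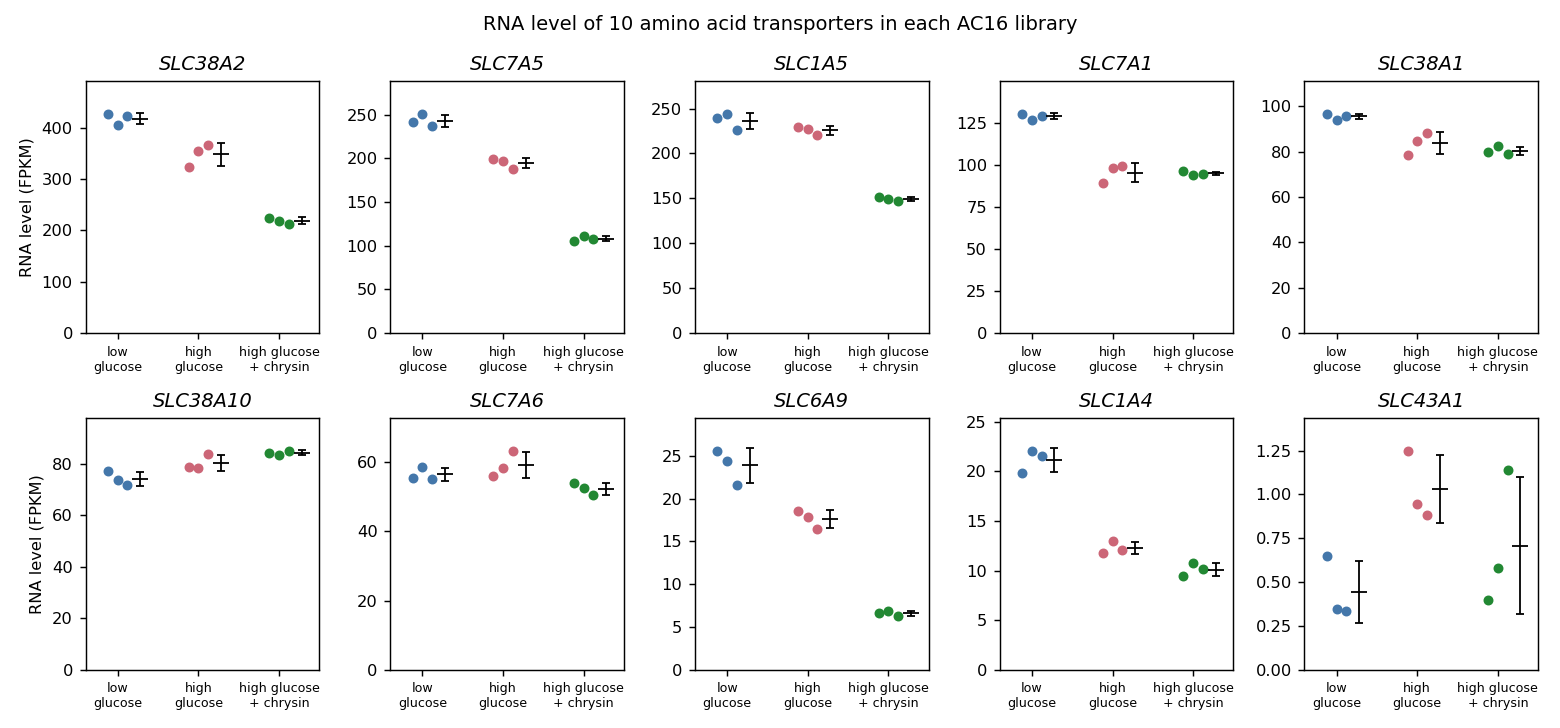
RNA level in FPKM (vertical axis, from 0) of each of the 10 transporters in the 3 libraries of each group (coloured points), with the mean and SD (black). SLC38A2, SLC7A5, SLC6A9 and SLC1A4 step down from group to group with no overlap. SLC1A5 is at 147 to 152 FPKM beside chrysin and at 220.1 or more without it, and SLC7A1 is at similar levels with and without chrysin in high glucose.

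The 10 genes spanned a wide range of levels. SLC38A2 was the most abundant in every group, with means of 418, 348 and 219 FPKM from low glucose to chrysin, and SLC43A1 the least, with 0.444, 1.03 and 0.707. In low glucose SLC7A5 (243) and SLC1A5 (236) came next and their libraries overlapped. In both high glucose groups SLC1A5 lay above SLC7A5 with no overlap. SLC7A1, SLC38A1, SLC38A10 and SLC7A6 were of middle rank, and SLC38A1 and SLC38A10 overlapped in high glucose. SLC6A9 lay above SLC1A4 in high glucose, overlapped with it in low glucose and was below it with chrysin. The 10 levels summed to 1299 ± 16.4 FPKM at low glucose, to 1119 ± 28.2 at high glucose and to 806 ± 10.3 beside chrysin (SD, n = 3). The sum with chrysin was 0.621 of that in low glucose, and no 2 groups overlapped. An exact two-sided permutation test of 3 against 3 libraries gave its smallest possible p, 0.1, for each pair of groups.

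SLC7A5 is the light chain of the main leucine exchanger, LAT1 (chromosome 16, 87830023 to 87869488, minus strand, GENCODE 29 on hg38). Its level was 242, 251 and 237 FPKM in the low glucose libraries, 199, 197 and 188 in high glucose, and 105, 111 and 108 with chrysin. The 3 groups did not overlap. It fell with high glucose, by a log2 difference of -0.32 (SE 0.03, adjusted p = 0.0001), and further with chrysin, by -0.85 (SE 0.03, adjusted p = 3.2e-08). From low glucose to chrysin with high glucose the log2 difference was -1.17, a 2.25-fold drop (adjusted p = 1.7e-09).

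SLC3A2, the heavy chain that carries SLC7A5, SLC7A6 and the cystine exchanger to the cell surface, followed a different course. It stood at 396, 407 and 399 FPKM at low glucose, 254, 234 and 240.5 at high glucose, and 218, 217 and 202 beside chrysin, with no overlap. Most of its fall came with high glucose (-0.72, adjusted p = 6.8e-07) and a smaller one with chrysin (-0.19, adjusted p = 0.0016). The ratio of SLC7A5 to SLC3A2 was 0.607 ± 0.0118 at low glucose, 0.803 ± 0.0343 at high glucose and 0.510 ± 0.0271 beside chrysin (SD, n = 3). All 3 groups were separate, and the highest ratios were those of high glucose alone.

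SLC7A6 (y+LAT2) pairs with the same heavy chain and exchanges cationic for neutral amino acids (chromosome 16, 68264516 to 68301823, plus strand). It stood at 55.5, 58.6 and 55.3 FPKM in low glucose, 56.0, 58.5 and 63.4 in high glucose, and 54.1, 52.6 and 50.6 with chrysin. Low and high glucose overlapped (log2 difference 0.07, adjusted p = 0.35), and all chrysin libraries lay below both. The fall from high glucose was small (-0.18, SE 0.05, adjusted p = 0.012) and was lost without chrysin library 3 (-0.15, adjusted p = 0.051). Against low glucose it did not pass the test (-0.11, adjusted p = 0.087), but did with median-of-ratios scaling (-0.16, adjusted p = 0.016), limma voom on recovered reads (0.047), only the 2 groups compared (0.039), the GC and length correction (-0.13, adjusted p = 0.027) and without high glucose library 3 (0.044). SLC7A6 shares 3371 exonic bases, 44.4% of its own, with SLC7A6OS on the other strand. SLC7A6OS rose with chrysin from 17.8 to 22.0 FPKM (log2 0.30, adjusted p = 0.0013), and since no source used here says whether counting used strand, reads in the shared part cannot be told apart. A further transcript on that strand, AC020978.9, shares 845 bases and was at 0.255 FPKM or less on average.

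SLC43A1 (LAT3) carries large neutral amino acids without a partner or exchange (chromosome 11, 57484534 to 57515786, minus strand). It was near the limit of detection, with 7 to 15 reads per low glucose library, 19 to 28 per high glucose library and 8 to 28 beside chrysin. Its levels were 0.651, 0.349 and 0.333 FPKM in low glucose, 1.25, 0.944 and 0.885 in high glucose, and 0.395, 0.582 and 1.14 with chrysin. Low and high glucose did not overlap, yet the difference was not called (0.70, SE 0.24, adjusted p = 0.06). It was called by limma voom (1.19 from the recovered reads, adjusted p = 0.034), with only the 2 groups compared (0.044) and without chrysin library 1 (0.046) or 3 (0.033). SLC43A1 passed the filter on low values only through the high glucose groups, so the filter itself favoured a rise. The chrysin libraries overlapped with both other groups and passed neither test (-0.38, adjusted p = 0.23, and 0.32, adjusted p = 0.29). Leaving out chrysin library 3, the highest of its group, put the difference from high glucose at -0.62 and just past the threshold (adjusted p = 0.05 after rounding).

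SLC1A5 (ASCT2) exchanges glutamine and other neutral amino acids (chromosome 19, 46774883 to 46788594, minus strand). It stood at 239, 244 and 226 FPKM in low glucose, 229.6, 227 and 220.1 in high glucose, and 152, 149.8 and 147 with chrysin. Low and high glucose overlapped, and their difference was not called (-0.07, SE 0.03, adjusted p = 0.16), although it was after a correction for GC content and length (-0.15, adjusted p = 0.0028). With chrysin it fell by a log2 difference of -0.59 (SE 0.03, adjusted p = 2.6e-07), or 1.51-fold. On the other strand an antisense transcript, AC008622.2, with group means of 2.15 to 3.43 FPKM, shares 780 exonic bases.

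SLC1A4 (ASCT1), a close relative that carries serine, alanine and cysteine, fell mostly with high glucose (chromosome 2, 64988477 to 65023865, plus strand). It stood at 19.8, 22.1 and 21.6 FPKM in low glucose, 11.8, 13.0 and 12.1 in high glucose, and 9.48, 10.8 and 10.2 with chrysin. The groups did not overlap. It fell 1.69-fold with high glucose (-0.76, SE 0.07, adjusted p = 2.8e-05), more than any other member in that comparison, and by less with chrysin (-0.27, SE 0.07, adjusted p = 0.0069). The FPKM of SLC1A5 was 11.2 ± 0.805 times that of SLC1A4 at low glucose, 18.4 ± 0.972 times at high glucose and 14.8 ± 1.08 times beside chrysin (SD, n = 3). Both genes have the ATF4 composite core in a window shown above, in each case at an inner start. Its part in their changes was not tested.

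SLC38A2 (SNAT2) is the sodium-coupled carrier of small neutral amino acids that cells raise when amino acids run short (chromosome 12, 46358189 to 46372867, minus strand). It stood at 427, 406 and 422 FPKM in low glucose, 324, 355 and 367 in high glucose, and 225, 219 and 212 with chrysin. All groups were separate, with the lowest high glucose value in library 1. It fell by -0.26 with high glucose (SE 0.04, adjusted p = 0.0016) and by -0.67 with chrysin (SE 0.04, adjusted p = 9e-07). It then stood 1.91-fold below low glucose.

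SLC38A1 (SNAT1), its neighbour on chromosome 12 and a glutamine carrier (46183063 to 46270017, minus strand), moved less. It stood at 96.7, 94.2 and 95.9 FPKM in low glucose, 78.4, 84.7 and 88.3 in high glucose, and 79.9, 82.5 and 79.1 with chrysin. Every high glucose and chrysin library lay below every low glucose library. The fall with high glucose passed the test (-0.19, SE 0.04, adjusted p = 0.0075). The difference made by chrysin did not (-0.06, adjusted p = 0.29), except without high glucose library 1 (-0.10, adjusted p = 0.024). The FPKM of SLC38A2 was 4.37 ± 0.0551 times that of SLC38A1 at low glucose, 4.16 ± 0.0277 times at high glucose and 2.72 ± 0.0854 times beside chrysin (SD, n = 3).

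SLC38A10, a less studied carrier of the same family, was the only member called higher in a comparison of 2 groups in the fit of all 9 libraries, SLC43A1 being called higher in 4 alternatives (chromosome 17, 81245000 to 81295547, minus strand). It stood at 77.3, 73.7 and 71.9 FPKM in low glucose, 78.8, 78.5 and 83.8 in high glucose, and 84.4, 83.3 and 85.2 with chrysin. Neither high glucose group overlapped with low glucose, but the 2 overlapped with each other. Its rise with high glucose (0.11, SE 0.04, adjusted p = 0.049) was lost in 12 of 18 alternatives, among them median-of-ratios scaling (0.08, adjusted p = 0.13), the replicate block (0.11, adjusted p = 0.074) and the GC and length correction (0.02, adjusted p = 0.84). The libraries whose removal ended it were low glucose 2 and 3 (0.12 and 0.17), high glucose 2 and 3 (0.058 and 0.15) and each chrysin library (0.067, 0.067 and 0.068, all adjusted p). Chrysin with high glucose against low glucose was called in all 18 alternatives (0.18, SE 0.04, adjusted p = 0.0019, range 0.00045 to 0.044). A minimum log2 change of 0.25, which is not among the 18, left SLC38A10 uncalled in both comparisons with low glucose.

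SLC7A1 (CAT-1) imports arginine, lysine and ornithine (chromosome 13, 29509410 to 29595688, minus strand). It stood at 130.4, 127 and 129 FPKM in low glucose, 89.1, 98.2 and 99.3 in high glucose, and 96.2, 94.3 and 94.5 with chrysin. It fell 1.35-fold with high glucose (-0.43, SE 0.04, adjusted p = 4.1e-05). The chrysin libraries lay inside the range of high glucose, with a log2 difference of -0.01 (95% confidence interval -0.09 to 0.08, adjusted p = 0.9). Its composite core, shown above, lies just inside the transcribed region, and the part of this core in the fall was not tested.

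SLC6A9 (GlyT1), the sodium- and chloride-coupled importer of glycine, had the largest fall with chrysin of the 10 (chromosome 1, 43991500 to 44031467, minus strand). It stood at 25.6, 24.4 and 21.6 FPKM in low glucose, 18.5, 17.8 and 16.4 in high glucose, and 6.60, 6.86 and 6.33 with chrysin. No groups overlapped. It fell by -0.43 with high glucose (SE 0.07, adjusted p = 0.0017) and 2.55-fold with chrysin (-1.35, SE 0.07, adjusted p = 2.5e-07), ending 3.43-fold below low glucose. CCDC24 on the other strand shares 404 exonic bases, 7.83% of those of SLC6A9, and fell too when chrysin was present (7.75 and 4.43 FPKM, log2 -0.74, adjusted p = 4e-05).

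**Figure D2:**
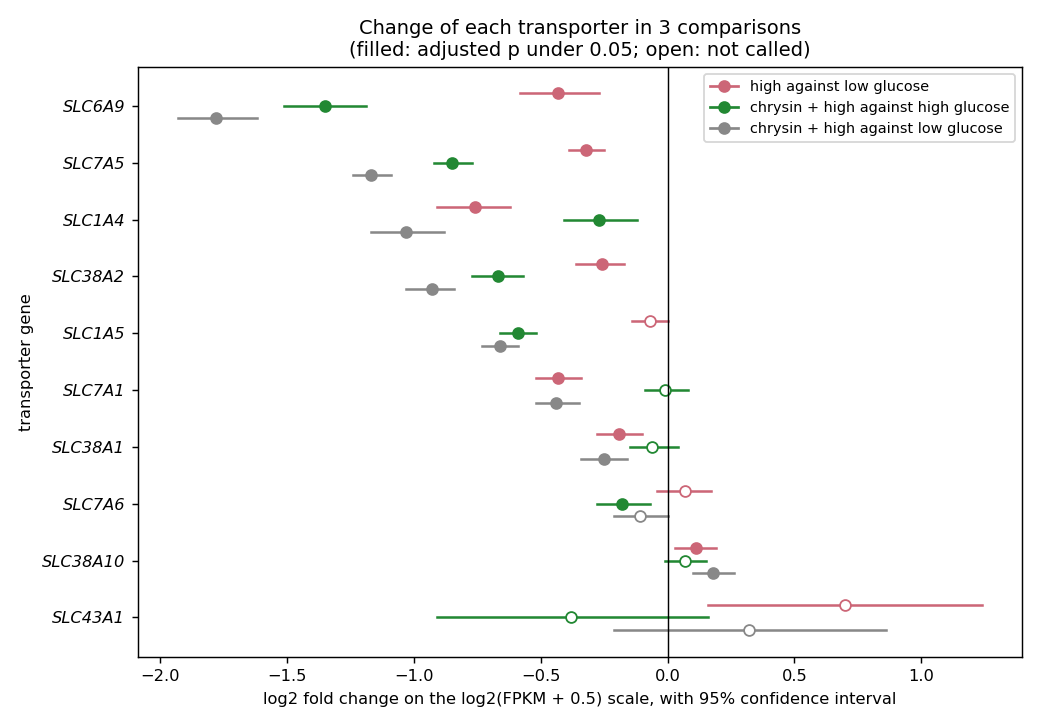
Log2 fold change of each transporter on the log2(FPKM + 0.5) scale (horizontal axis) with its 95% confidence interval, for high against low glucose (red), chrysin with high glucose against high glucose (green) and against low glucose (grey), filled where the adjusted p is under 0.05. The green point is far left of the red one for SLC6A9 (-1.35 and -0.43) and SLC7A5 (-0.85 and -0.32) and to its right for SLC1A4 (-0.27 and -0.76) and SLC7A1 (-0.01 and -0.43).

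Whether the 2 changes differed in size was tested as a contrast in the same fit, the change from high glucose to chrysin minus the change from low to high glucose. The 2 changes share the high glucose libraries. SLC1A5 (-0.52, adjusted p = 6.4e-05), SLC6A9 (-0.92, adjusted p = 0.00029), SLC7A5 (-0.53, adjusted p = 8.8e-05) and SLC38A2 (-0.41, adjusted p = 0.0023) fell by more with chrysin than with high glucose. SLC7A6 passed narrowly in the same direction (-0.24, adjusted p = 0.049) and lost its call in 8 of 17 alternatives. Among these were leaving out low glucose 1 or 3 (0.089 and 0.09), high glucose 2 or 3 (0.092 and 0.21) or chrysin 2 or 3 (0.076 and 0.095), and the replicate block (0.078). SLC1A4 (0.49, adjusted p = 0.0076) and SLC7A1 (0.42, adjusted p = 0.00092) fell by more with high glucose. SLC38A1 (0.13, adjusted p = 0.19), SLC38A10 (-0.04, adjusted p = 0.63) and SLC43A1 (-1.08, adjusted p = 0.077) did not pass. SLC43A1 did pass in limma voom (-1.78, adjusted p = 0.035) and without chrysin library 3 (adjusted p = 0.023). So 7 members were called in this contrast, 5 lower and 2 higher, where 29.8% of all genes were, 15.9% lower and 13.9% higher.

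**Figure D3:**
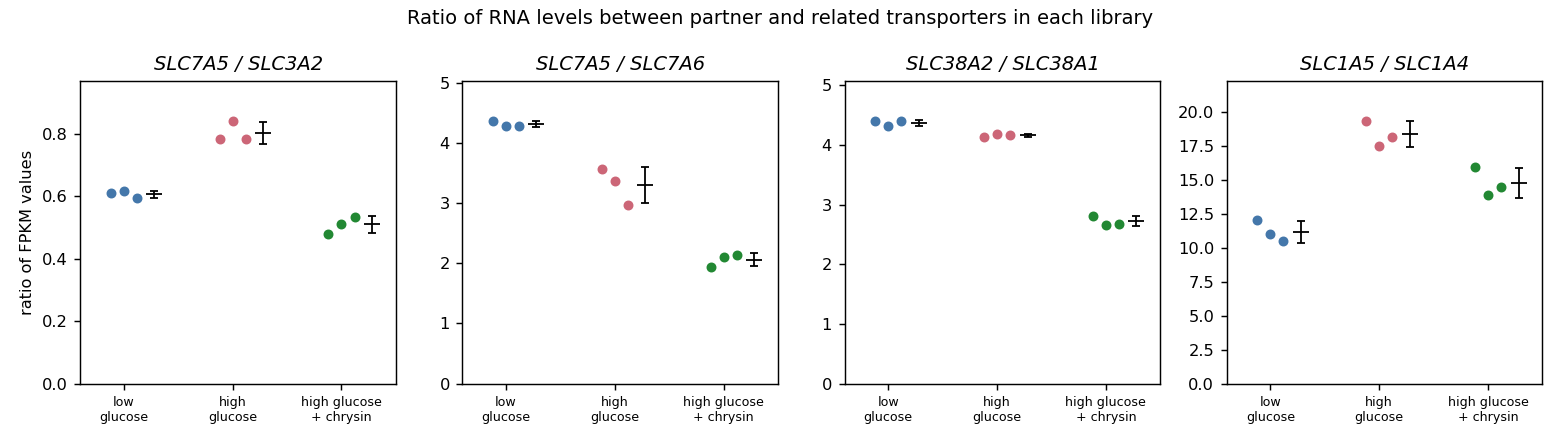
Ratio of FPKM values (vertical axis, from 0) between a transporter and its partner or relative in each library, with mean and SD. SLC7A5 to SLC3A2 is highest in high glucose (0.803) and lowest with chrysin (0.510), SLC7A5 to SLC7A6 and SLC38A2 to SLC38A1 drop most with chrysin, and SLC1A5 to SLC1A4 is lowest in low glucose (11.2).

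The ratio of SLC7A5 to its relative SLC7A6 went from 4.31 ± 0.0502 at low glucose to 3.30 ± 0.300 at high glucose and 2.06 ± 0.107 beside chrysin (SD, n = 3). That of SLC7A5 to the cationic carrier SLC7A1 was 1.89 ± 0.0736, 2.05 ± 0.173 and 1.14 ± 0.0440. Over the sum and 5 ratios, 18 comparisons were made. In 17 the groups did not overlap and the exact two-sided permutation p was 0.1, the smallest that 3 against 3 allows (0.106 adjusted over the 18). SLC7A5 to SLC7A1 overlapped between low and high glucose (exact permutation p = 0.2). As shares of the summed transporter RNA, SLC7A5 went from 18.7% in low glucose to 13.4% with chrysin and SLC38A2 from 32.2% to 27.1%. SLC7A1 went from 9.92% through 8.53% in high glucose to 11.8%. SLC38A1 went from 7.36% to 9.99% and SLC38A10 from 5.72% to 10.5%. The FPKM of SLC7A1 and SLC38A1 nonetheless fell from low glucose to chrysin, by less than the sum did.

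For each member, the 14462 named genes tested that are not members were ranked by Pearson's r with it over the 9 libraries, which share the 3 groups. The nearest patterns to SLC7A5 were BTG1 (r = 0.996) and DDIT4 (r = 0.996), and DDIT4, an inhibitor of mTORC1 signalling, was also nearest to SLC6A9 (r = 0.994) ahead of MOK (0.994). DDIT4 went from 93.6 ± 1.44 FPKM to 59.5 ± 1.68 and 16.7 ± 1.14 (SD, n = 3). SLC1A5 was most like SMARCB1 and CCNG2 (both r = 0.997), and SLC38A2 most like ERBIN (0.997) and SYNE1 (0.996). SLC1A4 was most like NUCB2 (0.994) and PDIA3 (0.992), an ER protein disulfide isomerase at 706, 526 and 473 FPKM in the 3 groups. SLC7A1 had ANKRD30B (0.991) among its nearest, and SLC38A1 was most like PJA2 (0.988) and ZNF25 (0.984). The nearest genes to SLC38A10 were CIBAR1 (0.978) and GPR155 (0.976), to SLC7A6 RNMT (0.964) and ITGA2 (0.958), and to SLC43A1 B4GALNT4 (0.946) and POLRMT (0.945). Among the members themselves, r was 0.98 between SLC7A5 and both SLC1A5 and SLC38A2, 0.99 between SLC1A5 and SLC6A9, 0.95 between SLC7A1 and SLC38A1 and -0.92 between SLC1A4 and SLC38A10.

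Of 49 amino acid transporters listed outside the 10, 33 were tested. In high against low glucose 8 rose and 5 fell (median log2 difference 0.04), beside 14.6% and 8.91% of all genes. With chrysin against high glucose 8 rose and 12 fell (median -0.01), beside 24.9% and 20.9% of all genes. Their difference from the 10 was not tested. Against low glucose 12 rose and 10 fell with chrysin (median -0.01), beside 29.7% and 21.3% of all genes. Of 210 tested genes with SLC names that are not members, 37 rose and 21 fell with high glucose, and 51 rose and 56 fell with chrysin.

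**Figure D4:**
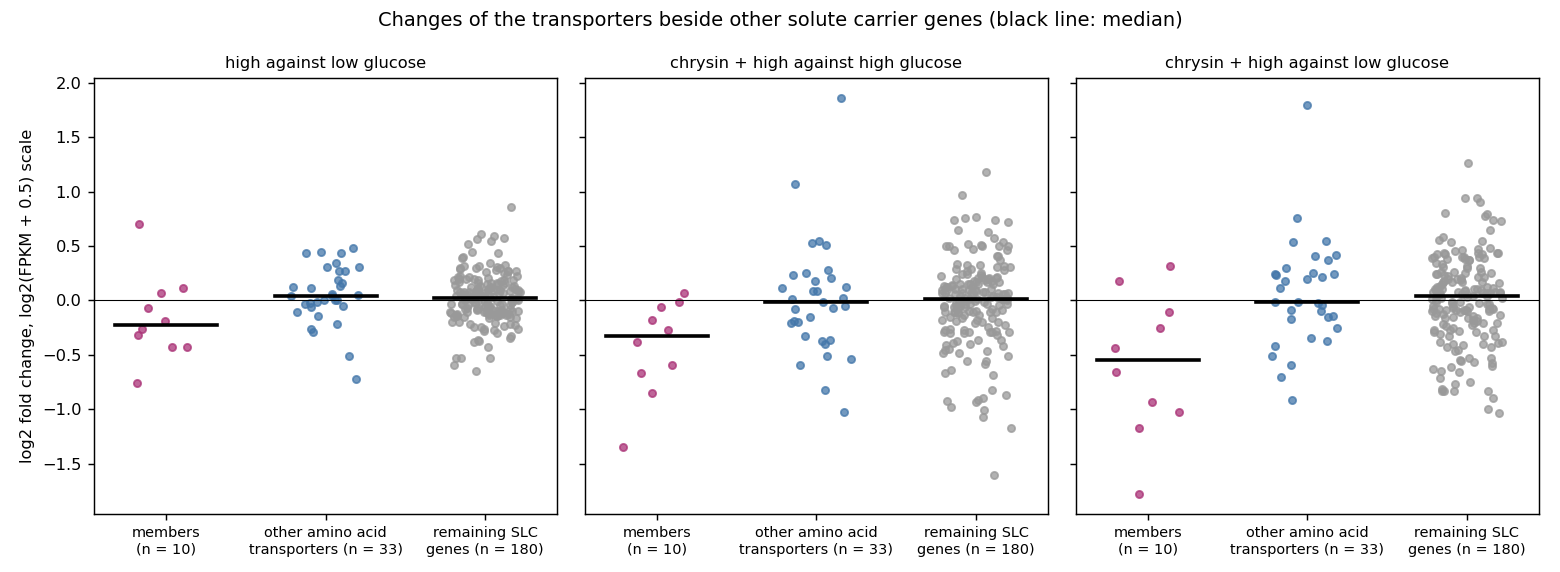
Log2 fold change on the log2(FPKM + 0.5) scale (vertical axis) of the 10 members, 33 other amino acid transporters and the remaining SLC genes in 3 comparisons, 1 point per gene, with the median as a black line. The members' medians are -0.23, -0.32 and -0.55, and the medians of the other sets lie near 0. The members and the listed transporters were chosen with earlier results of these data known.

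Among plasma membrane carriers related to the members, 7 of 13 were tested. With chrysin against high glucose 5 of these fell and none rose (20.9% and 24.9% of all genes), though only 3 fell without high glucose library 3 or chrysin library 3. The largest was SLC1A3, a glutamate transporter, at -1.03 (7.30 to 3.32 FPKM, adjusted p = 2.3e-05), followed by the neutral amino acid carrier SLC6A15 at -0.54 (adjusted p = 0.02), the glutamate transporter SLC1A1 at -0.40 (adjusted p = 0.00029), SLC38A4 at -0.36 (adjusted p = 0.0034) and SLC38A6 at -0.33 (adjusted p = 0.026). Only SLC1A3 was called in high against low glucose (0.34, adjusted p = 0.045), a call that median-of-ratios scaling ends (adjusted p = 0.065), as does leaving out any library but low glucose 2 or chrysin 1 (adjusted p from 0.051 to 0.15). SLC7A11, the cystine exchanger and the other light chain of SLC3A2 that was called, went from 17.5 to 12.1 and 25.9 FPKM, so that it fell with high glucose (-0.51, adjusted p = 0.00042) and rose with chrysin (1.07, adjusted p = 8.1e-07).

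Of 7 lysosomal carriers tested, 3 rose and 1 fell with chrysin, beside 24.9% and 20.9% of all genes: the glutamine exporter SLC38A7 (0.53, adjusted p = 3.7e-05), the cystine exporter CTNS (0.55, adjusted p = 0.00021) and SLC36A1 rose, and SLC36A4 fell (-0.51, adjusted p = 0.00019). In high against low glucose only SLC38A9, the arginine sensor of the lysosome, was called (-0.22, adjusted p = 0.027), a call that ended when low glucose 2, low glucose 3, high glucose 1 or high glucose 2 was left out (adjusted p = 0.096, 0.075, 0.08 and 0.069). Of 3 carriers of osmolytes and related compounds tested, the taurine transporter SLC6A6 (0.44, adjusted p = 0.00097) and the creatine transporter SLC6A8 (0.44, adjusted p = 0.0017) rose in high glucose and were lower with chrysin (-0.20, adjusted p = 0.031, and -0.59, adjusted p = 8.5e-05). The SLC6A6 call with chrysin was lost without any of 5 libraries (high glucose 1, 2 or 3, or chrysin 1 or 3, adjusted p from 0.058 to 0.11). SLC6A13, a carrier of GABA and taurine, had 1 to 2 reads per library in high glucose and 19 to 37 beside chrysin. The rise was called (adjusted p = 4.3e-05). Only beside chrysin did the mean of SLC6A13 reach the 0.5 FPKM filter (1.61 FPKM), so that filter favoured a rise. Of 9 mitochondrial carriers tested, 5 rose and 2 fell with high glucose, beside 14.6% and 8.91% of all genes. With chrysin 3 rose and 2 fell, beside 24.9% and 20.9% of all genes. The falls numbered 1 when any library but high glucose 1 was left out. SFXN1, the mitochondrial serine importer, rose in both (0.31, adjusted p = 0.00011, and 0.23, adjusted p = 0.0002), as did SLC25A44, a carrier of branched-chain amino acids (0.48, adjusted p = 4.5e-05, and 0.28). SFXN3 rose with high glucose (0.45) and fell with chrysin (-0.82, adjusted p = 1.5e-06), and SLC25A38, the glycine carrier, fell (-0.29) and rose (0.51, adjusted p = 7.4e-05).

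Of 16 regulators of the amino acid and ER stress responses tested, 9 fell, 1 rose and 6 were not called with high glucose (median log2 difference -0.45), where 8.91% of all genes fell and 14.6% rose. With chrysin 8 fell and 2 rose (median -0.13), beside 20.9% and 24.9% of all genes. Without high glucose library 1, 2 rose with high glucose. ATF4 went from 403 to 275 and 249 FPKM (-0.55, adjusted p = 2.4e-07, then -0.14, adjusted p = 0.00093). DDIT3, a stress transcription factor and ATF4 target, went from 103 to 9.67 and 4.82 (-3.35, adjusted p = 2.4e-10, then -0.94, adjusted p = 1.6e-06). TRIB3, another target, fell by -1.81 with high glucose (adjusted p = 2.5e-09) and by -0.32 with chrysin (adjusted p = 0.00033). XBP1, a transcription factor of the unfolded protein response, fell by -0.75 and then -0.37 (adjusted p = 1.1e-07 and 4.8e-06). EIF2S1, the translation factor subunit that stress kinases phosphorylate, rose with chrysin (0.49, adjusted p = 1.4e-06).

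Enzymes that use the transported amino acids gave mixed counts. Of 12 enzymes of glutamine, glutamate, proline and asparagine metabolism tested, 4 fell and 2 rose with high glucose, beside 8.91% and 14.6% of all genes. ASNS, the asparagine synthetase, went from 4.07 to 0.935 FPKM (-1.70, adjusted p = 0.00037). It had few reads, 84 to 130 per low glucose library and 15 to 37 per high glucose library. PYCR1 of proline synthesis fell by -0.38 (adjusted p = 0.00012) and GPT2 by -0.30 (adjusted p = 0.0035). With chrysin against high glucose 4 rose and 2 fell, beside 24.9% and 20.9% of all genes. Among them were PYCR3 (0.56, adjusted p = 0.00013), GOT2 (0.16, adjusted p = 0.0015) and the glutamine synthetase GLUL (-0.34, adjusted p = 0.00039). The number risen with high glucose was 1 when any library but high glucose 1 or chrysin 2 was left out. Of 8 branched-chain and arginine enzymes, 2 fell with high glucose (8.91% of all genes), BCAT1 (-0.22, adjusted p = 0.0098) and ASL. Only 1 fell on leaving out low glucose 3, high glucose 2 or high glucose 3. Of the same 8, 3 fell and none rose with chrysin, beside 20.9% and 24.9% of all genes. These were ASS1, which makes argininosuccinate (-1.32, 37.6 to 14.8 FPKM, adjusted p = 1e-06), and the aminotransferases BCAT1 (-0.50, adjusted p = 1.7e-05) and BCAT2 (-0.26, adjusted p = 0.0011). Of 13 genes of amino acid sensing and mTORC1 control, 3 rose and 2 fell with high glucose, beside 14.6% and 8.91% of all genes. With chrysin 1 rose and 2 fell, beside 24.9% and 20.9%. The leucine sensor SESN2 (-1.06, adjusted p = 2.3e-06) and DDIT4 (-0.65, adjusted p = 9.5e-06) fell with high glucose, and DDIT4 again with chrysin (-1.81, adjusted p = 2.9e-09). CASTOR2, a relative of the arginine sensor, rose with high glucose (0.75, adjusted p = 0.00032).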

How the data were processed

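Per the submitters' processing notes the tools were fastp 0.23.4, HISAT2 2.2.1, StringTie 2.2.1 and HTSeq 0.13.5 with build hg38. No source used here gives their roles, the annotation or the strand setting. The authors deposited one table of FPKM values, a unit read from the values. For all 28230 genes above 0 in several libraries, the smallest reads that explain the steps of these values were whole within 4.6e-05 reads.

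The main test was limma's trend method (version 3.58.1, R 4.3.3) applied to log2(FPKM + 0.5) of the genes averaging 0.5 FPKM or more in any group, with 9 libraries in 1 fit and two-sided contrasts. It was also run on simulated data with the same spread in all libraries. In the real data high glucose library 1 stood apart, so that run could not check this case. Other settings tried were pseudocounts of 0.1 and 1, dropping the filter or raising it to 5 FPKM, scaling by median of ratios, voom (limma) run on those reads, a block for replicate number, only the groups compared and leaving out each library. The GC and length correction (loess, span 0.4), a minimum change of 0.25 and the contrast of the 2 changes were added after seeing the data. Positions are from GENCODE 29 and promoters from RefSeq.

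The members and the 10 lists were chosen with earlier results of these data known. Named were all members, SLC3A2, ATF4, DDIT3, up to 3 called genes with the smallest p per list and comparison, and the 2 genes most like each member. Some genes that this rule names are not reported here. Other list genes were named after their values were seen. In the lists each count is over all genes' adjusted p.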

Additional observations from a re-analysis of the deposited data

How the results depend on the processing

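Of the alternatives for the 10 members in 3 comparisons, 510 values kept their direction and side of the threshold, 13 lost the call, 12 gained one and 2 changed sign. The sign changes were SLC7A1 with chrysin against high glucose, at 0.01 without high glucose library 2 and 0.02 without library 3 (range -0.06 to 0.02 over the left-out libraries). In the contrast of the 2 changes SLC38A10 went to 0.02 without high glucose library 3 (range -0.08 to 0.02) and to 0.08 with the GC and length correction. The number of members that fell ranged from 5 to 7 in high against low glucose, from 5 to 7 with chrysin against high glucose and from 6 to 8 against low glucose. The number that rose with high glucose was 0 with no filter, median-of-ratios scaling, the replicate block, the GC and length correction or a minimum change of 0.25, was 2 with limma voom and ran from 0 to 1 when leaving out 1 library. Against low glucose it was 0 with a minimum change of 0.25. With only the 2 groups compared, or without chrysin library 1 or 3, the gene risen with high glucose was SLC43A1 in place of SLC38A10. The replicate numbers share no stated culture or day, and deviations of same-numbered libraries correlated at -0.119 to 0.087. With the replicate block the members called numbered 6, 6 and 8, and the SLC38A10 call with high glucose was lost (0.11, adjusted p = 0.074). SLC43A1 had no value at a mean of at least 5 FPKM, and its 7 to 28 reads per library limit its precision.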
